A study of Cricetulus griseus with 19 samples.

Results

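The comparison described here sets 7 long-term cultures kept under negative feedback against 4 long-term cultures with uncontrolled growth, which are 11 of the 19 libraries of the series. Libraries were chosen by their culture condition label alone, and no measured value entered the choice. All of the cells are Paradaux, a line made from CHO-K1, the Chinese hamster cell line derived from ovary. Per the labels' protocols, polyadenylated RNA was taken after 2 days of growth at under 80% confluence. The other libraries, 7 of paradoxical feedback and 1 of the parental line, entered the fit, where they bear on the filter for low counts, the scaling and the estimate of the spread between cultures.

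The inserted construct was detected in every one of the 11 cultures, and the groups differ by the label of the culture condition. The labels name no clone, passage number, length of culture or library batch, so neither the history of a culture nor a batch can be set against its values. Each label was taken as a separate culture. Where cultures share a source, a p-value measures no more than how far these samples lie apart, which may be technical. CHO-K1 has no agreed defining markers, and none of the fibroblast-like, epithelial or haematopoietic marker genes that were looked for matched a named target. The identity of the cells was therefore not checked by markers.

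In a negative feedback circuit, cells release a signal, sense it themselves, and respond with death or slower growth as the signal builds up with density. Paradaux cells use the plant hormone auxin as this signal. Programmed cell death often runs through caspases, proteases that cut proteins of the dying cell. By which route cells died in these cultures was not measured. A population under such control divides against a standing rate of loss, so genes of the cell cycle, of apoptosis and of protein folding are the usual places to look for a change. CHO cells are also the standard host for secreted protein drugs, and their glycosylation enzymes are among the best known genes of the species.

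Levels are in CPM, counts scaled to a common library total after a correction for composition (TMM). They are estimated counts of single transcript records and not of whole genes. Only 284 tested records of protein-coding genes could be matched to a symbol, and these are called named genes. A level near 0 therefore does not show that a gene was silent: the matched record of Actb, the cytoskeletal actin that every cell uses, was listed at 0 in 10 of the 11 cultures. A gene is marked as having shared reads where the quantifier divided reads among similar records. Log2 fold changes are negative feedback minus uncontrolled and stand in parentheses after the levels. The value after ± is an approximate standard error, the size of the fold change divided by the square root of edgeR's F statistic. It restates the test and is no separate measure of error. Where levels are set against each other, uncontrolled cultures come first, in the order of their numbers where single values are listed. For records near 0 in the uncontrolled cultures the fitted fold change depends on the small count that the fit adds, so their CPM values should be read first. A record was called at an adjusted p under 0.05 in edgeR's quasi-likelihood test over all 28555 tested records. In bulk RNA, fewer cells of a kind and less RNA per cell cannot be told apart.

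The negative feedback cultures were not alike. On the first principal component of the 11 libraries, which held 49.5% of the variance, uncontrolled cultures lay from -181 to -133. Negative feedback cultures 1 and 2 lay among them, at -173 and -152, and cultures 3, 4, 5, 6 and 7 lay at 195, 210.4, 207, 209.9 and 148. The root-mean-square distance over all records was 1.61 to 1.70 on the log2 scale between uncontrolled cultures. It was 1.62 to 1.70 from negative feedback cultures 1 and 2 to the uncontrolled ones and 2.29 to 2.74 from cultures 3 to 7. The labels give no reason to divide the group, so calls come from the fit with all 7 cultures together. Fits that leave out cultures 1 and 2 or cultures 3 to 7 are given as alternatives, and the division itself was not tested.

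**Figure D1:**
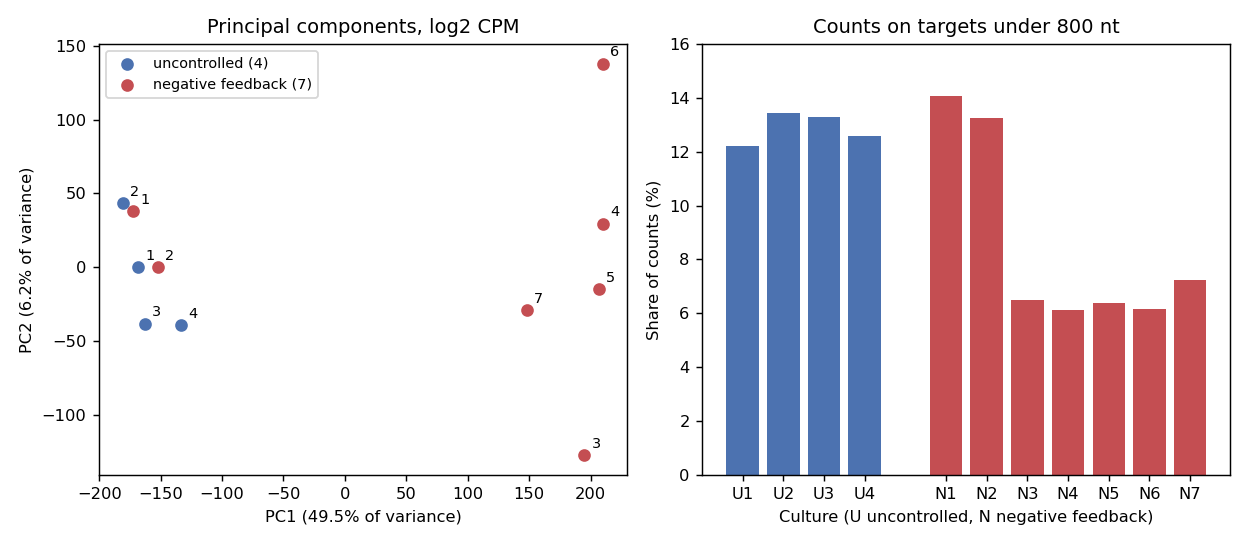
Left, the first 2 principal components of log2 CPM, with 1 point per culture and its number beside it. Right, the share of counts on records under 800 nt in each culture, in percent. Negative feedback cultures 1 and 2 sit with the uncontrolled ones in both panels, and cultures 3 to 7 stand apart.

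The division went along with differences in what kinds of record took the counts. Records under 800 nt took 12.2, 13.4, 13.3 and 12.6% of the counts in the uncontrolled cultures and 14.1 and 13.3% in negative feedback cultures 1 and 2. In cultures 3 to 7 they took 6.12 to 7.22%. The share of predicted noncoding records was 3.21 to 3.52% without control. Under negative feedback it was 3.26 and 3.25% in cultures 1 and 2 and 1.53 to 1.68% in the other 5. The exact two-sided permutation test over all 7 against 4 cultures gave p = 0.0545 for the first share and 0.0273 for the second, both 0.145 after Benjamini-Hochberg adjustment over 8 library measures. The smallest p this design allows is 0.00303. After adjustment, none of the 8 measures passed the 0.05 level.

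Length of the record moved with the level as well. Records under 800 nt had a median log2 difference to the uncontrolled mean of -0.81 to -0.64 in cultures 3 to 7, and records of 4000 nt and over had 0.13 to 0.38. In cultures 1 and 2 the medians of the short records were 0.10 and 0.043, and those of the long records -0.0059 and 0. Among named genes, those whose record length is a multiple of 3, as in a record that holds only the coding sequence, had medians of 0.75 to 1.04 in cultures 3 to 7, against 0.20 to 0.36 for the other named genes. Of the called named genes with a log2 fold change over 2, 62.2% had such a length, compared with 46.5% of all named genes tested and 37.9% of predicted coding records. The part of record length, of record type and of library composition in the results below was not tested beyond the fit that uses the short-record share as a covariate.

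Over all records, 2470 were called higher under negative feedback (8.65%) and 317 lower (1.11%), 9.76% in all. Among named genes, 80 were called higher (28.2%) and 1 lower (0.352%). The median log2 fold change was 0.44 over named genes and 0.041 over all records, so a named gene with a fold change near 0.44 stands where the typical one does. Counts of called members in the gene groups below are to be read against the 28.2% of named genes, and a share near it is no result about the group. Every adjusted p among the called named genes lay between 0.0236 and 0.0497.

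The number of calls depended on single cultures of both groups. Without uncontrolled culture 1, 2, 3 or 4, edgeR called 13, 7, 7 or 15 records higher, and no named gene, although 138, 135, 138 or 147 named genes had an unadjusted p under 0.05. With only the 11 libraries of the comparison in the fit, 8 records were called higher and 2 lower, and again no named gene, with 144 at an unadjusted p under 0.05. Without negative feedback culture 1 or 2, 4496 or 4165 records were called higher, and without any one of cultures 3 to 7, 911 to 1386. With negative feedback cultures 1 and 2 both left out, 5844 were higher and 5616 lower. With cultures 3 to 7 left out, 4 were higher and 9 lower, none of them named, and 1 named gene had an unadjusted p under 0.05. With the short-record share as a covariate, 6 were higher and 0 lower, again none of them named, with 14 named genes at an unadjusted p under 0.05. Calls below are those of the fit of all 19 libraries, and the values by culture stand beside them.

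**Figure D2:**
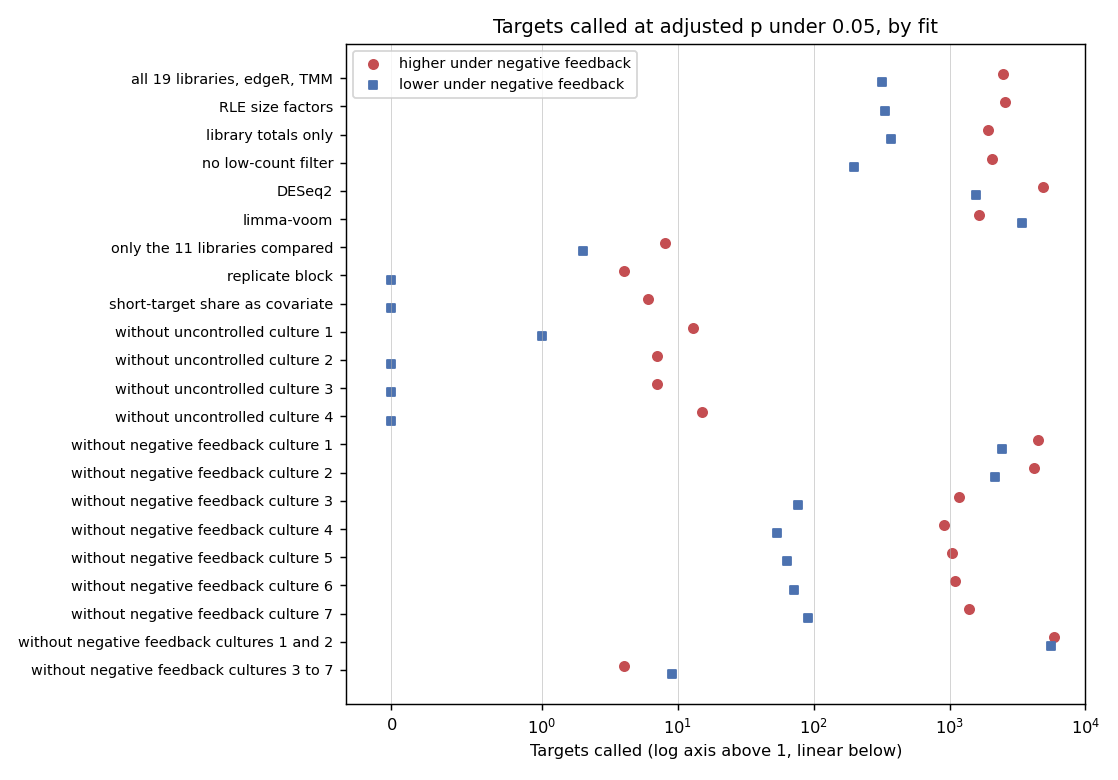
Number of records called higher (circles) or lower (squares) at an adjusted p under 0.05 in each of 22 fits, on a log axis that is linear below 1. The fit of all 19 libraries called 2470 higher and 317 lower, while the 4 fits without 1 uncontrolled culture each called 15 or fewer in each direction.

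The excess of higher calls was seen in the group means and not in the order of the cultures over all records. Cultures 3 to 7 all lay above all 4 uncontrolled cultures for 6400 records (22.4%) and all below for 6306 (22.1%), nearly the same number. By arithmetic on group means, a record at 0 in cultures 3 to 7 and at the uncontrolled level in cultures 1 and 2 has a log2 ratio of -1.81, whereas a rise has no such limit. The part of this bound in the counts was not tested. By limma-voom, 1637 records were called higher and 3402 lower, and 32.5% of the calls were higher, against 88.6% by edgeR. It called 44 named genes higher and 24 lower, so many of the higher calls by edgeR were not shared by it. For single genes below, limma-voom is named only where it called a gene lower. Among named genes the tilt towards higher values was also present in the cultures, with 145 all above (51.1%) and 49 all below (17.3%) in cultures 3 to 7. Cultures 1 and 2 both lay above the uncontrolled ones for 1532 records (5.37%) and below for 1443 (5.05%), and for 19 (6.69%) and 7 (2.46%) of the named genes.

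All 80 named genes called higher had cultures 3 to 7 above every uncontrolled culture, as did 2418 (97.9%) of the 2470 records called higher, so the call and this order go together. Culture 1 was within or below the uncontrolled range for 68 of them and culture 2 for 65. In 15 of them cultures 1 and 2 both lay on the other side of the uncontrolled mean from cultures 3 to 7. Srebf2, Map2k1, Pex19 and Sdc1 were among those 15. Pex19, which brings membrane proteins to the peroxisome, had 29.9, 30.5, 35.8 and 34.8 CPM in the uncontrolled group. It had 31.2 and 29.7 CPM in cultures 1 and 2, and 72.6 to 84.9 CPM in the other 5.

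A separate question is which differences all 7 negative feedback cultures shared. All 7 lay above all 4 uncontrolled cultures for 476 records (1.67%) and below for 628 (2.2%). Among the records called higher, 280 (11.3%) had no overlap, as did 159 (50.2%) of those called lower. Named genes counted 10 above (3.52%) and 1 below (0.352%), so 11 in all. Of these 11, 5 were also free of overlap when libraries were scaled by their totals alone, 9 with relative log expression factors, and 4 under both: Gbf1, Pdha1, Tvp23b and Orc2.

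Gbf1, which activates Arf GTPases at the Golgi, was among them with shared reads. It was at 0, 0.284, 0.237 and 0 CPM in uncontrolled cultures 1 to 4 and at 0.625, 0.876, 4.24, 12.7, 19.3, 10.9 and 10.7 CPM in negative feedback cultures 1 to 7. Cultures 1 and 2 lay just above the uncontrolled range and the others far above it, and the fitted change was 5.92 ± 1.56 (edgeR adjusted p = 0.0291). Pdha1, a subunit of pyruvate dehydrogenase, which feeds pyruvate into the mitochondrial cycle, had whole counts. Its levels were 10.9, 9.57, 10.2 and 11.5 CPM in uncontrolled and 14.3, 12.1, 104, 85.1, 88.2, 84.4 and 69.3 CPM in negative feedback cultures. The fold change was 2.63 ± 0.56 (adjusted p = 0.0236), and cultures 1 and 2 lay nearer to the uncontrolled values than the other 5 did. Ap3m1, a subunit of the AP-3 adaptor of endosome traffic, has 2 named records, both with shared reads. The record without overlap stood at 3.87, 1.52, 0 and 7.95 CPM against 8.39, 11.1, 82.4, 79.3, 94, 75.6 and 68.4 CPM, and the other record at 41.3 to 86.2 CPM against 16.8 to 77.6 CPM with a log2 fold change of -0.57 ± 0.30 (adjusted p = 0.198). The gene's total therefore cannot be read from either.

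Smaller differences were spread more evenly over the 7 cultures. Sephs2, which makes the selenium donor for selenoproteins, stood at 123, 156, 172 and 182 CPM in uncontrolled cultures and 270.3, 183, 221, 260.2, 254, 235 and 244 CPM in negative feedback cultures. Here culture 1 was the highest of all, and the fold change was 0.59 ± 0.16 (adjusted p = 0.0344), and 0.52 without cultures 3 to 7. Eef2, the translocating elongation factor of the ribosome, was at 2031, 2411, 2497 and 2119 CPM against 2618, 2509, 3176, 3047, 3259.8, 2898 and 3078 CPM, a fold change of 0.38 ± 0.11, which is below that of the typical named gene. Sdhc of respiratory complex II, with shared reads, was at 54.5 to 60.4 CPM against 60.6 to 86.8 CPM. Its fold change of 0.30 ± 0.11 was not called (adjusted p = 0.0726). Tvp23b, a Golgi membrane protein, was at 13.8 to 16.6 CPM against 17.1 to 21.1 CPM, a fold change of 0.30 ± 0.19 that was not called either (adjusted p = 0.277).

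Hsp90aa1, Npc1 and Casp8 completed the higher set, each with cultures 1 and 2 close to the uncontrolled values. Npc1, which moves cholesterol out of lysosomes, was at 26.7, 23.4, 23.4 and 21.2 CPM in uncontrolled cultures, 27 and 29.1 CPM in cultures 1 and 2 and 39.2 to 48.3 CPM in cultures 3 to 7. Orc2, a subunit of the complex that marks replication origins, with shared reads, was the 1 named gene below. It stood at 83.7, 42.9, 45.2 and 43.8 CPM in uncontrolled and 25.5, 34.6, 6.53, 5.4, 5.16, 23.9 and 22.9 CPM in negative feedback cultures. Its fold change of -1.61 ± 0.50 just missed the call (adjusted p = 0.0525), and it was called lower by limma-voom (-1.98, adjusted p = 0.0226). Uncontrolled culture 1 was the highest there, and the other 3 uncontrolled cultures lay closer to the negative feedback ones.

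**Figure D3:**
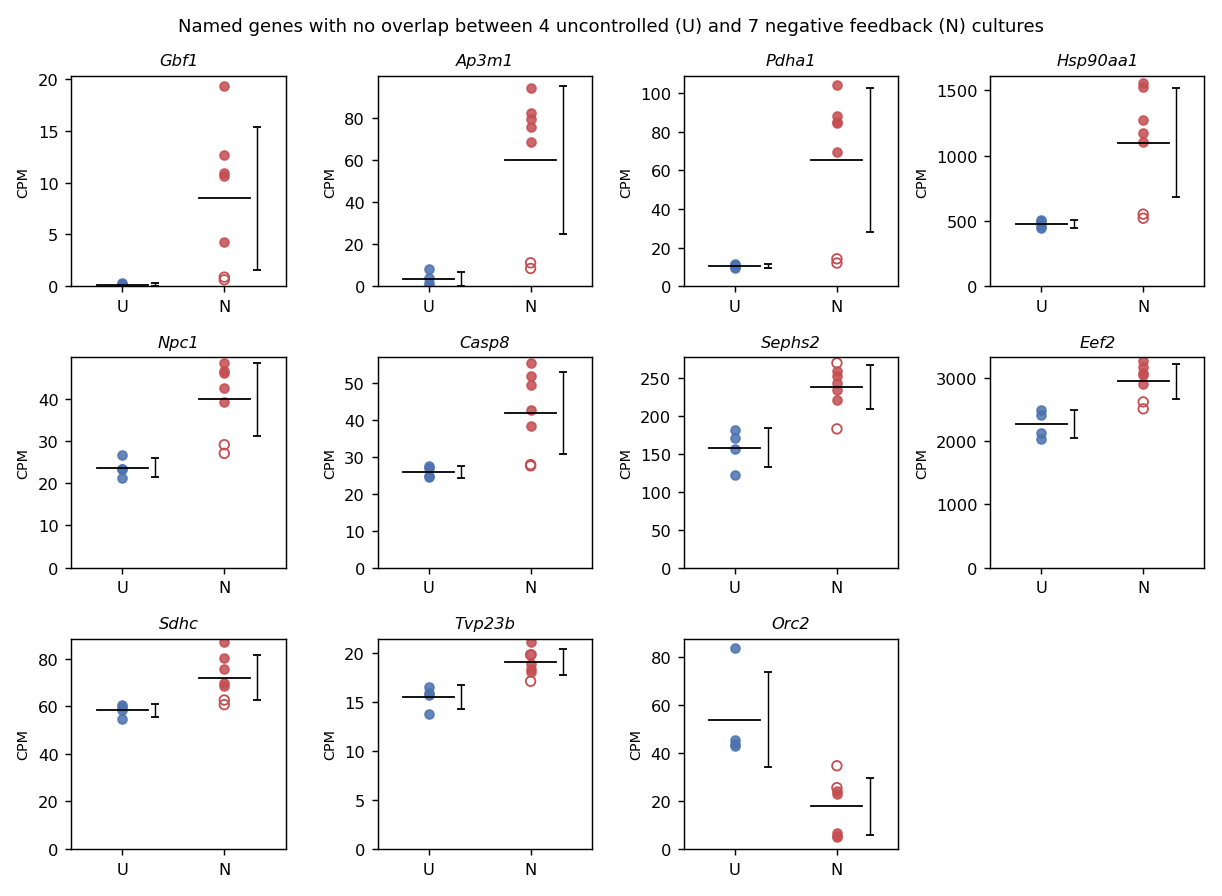
CPM of the 11 named genes whose 4 uncontrolled (U) and 7 negative feedback (N) cultures did not overlap, with 1 point per culture, the group mean as a line and its SD as a bar. Open circles are negative feedback cultures 1 and 2, which lie nearest to the uncontrolled cultures for most genes, and Sephs2 differs, in that culture 1 is the highest of all.

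On the list of genes of the G1/S transition and of DNA replication, most members were higher in cultures 3 to 7. Of 10 tested members, 4 were called higher and none lower, and the median log2 fold change was 1.49, against 0.041 over all records and 0.44 over named genes. None of the 10 was called by limma-voom. Cultures 3 to 7 lay above every uncontrolled culture for 8 of the 10, while cultures 1 and 2 did so together for none. Over all named genes these shares were 51.1% and 6.69%, so none of 10 for cultures 1 and 2 is no result about the list. Cdk2, the kinase that drives entry into S phase, was at 6.83, 6.07, 8.07 and 9.05 CPM in uncontrolled cultures and at 6.61, 8.17, 60.5, 61, 54.4, 55.7 and 51.9 CPM in negative feedback cultures, with a fold change of 2.50 ± 0.54. Cdc25a, the phosphatase that removes the inhibiting phosphate from Cdk2, was at 1.48, 1.99, 2.53 and 5.58 CPM against 1.87, 2.43, 52.8, 27.2, 31.4, 22.3 and 18 CPM. It was called higher (2.94 ± 0.78, adjusted p = 0.029), and culture 3 was the highest for both Cdc25a and Cdt1. Cdt1, which loads the replicative helicase onto origins, was at 6.5 to 14.2 CPM in uncontrolled cultures, 5.89 and 11.2 CPM in cultures 1 and 2 and 36.9 to 50.3 CPM in cultures 3 to 7.

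Ccnd1, cyclin D1, the growth-factor-responsive partner of Cdk4 and Cdk6, had shared reads and low levels. It was at 0.0791 to 0.761 CPM in uncontrolled cultures, 0.446 and 0.487 CPM in cultures 1 and 2 and 13.3 to 20.6 CPM in cultures 3 to 7 (4.53 ± 1.01). The other 6 members of the list were not called. Pcna, the clamp that holds DNA polymerase on its template, was at 62.4, 76.8, 115 and 101 CPM against 75.6, 95.1, 264, 216, 217, 190.1 and 205 CPM, a fold change of 1.02 ± 0.32 (adjusted p = 0.0506). Tk1, the thymidine kinase of the salvage route, with shared reads, was at 19.2 to 52.4 CPM against 28.7 to 108 CPM (0.93 ± 0.40, adjusted p = 0.129). Its uncontrolled cultures differed among themselves by more than 2-fold. Tested genes of replication outside the list, picked with their values in view, did not all go the same way. Dbf4 was called higher by edgeR (0.90 ± 0.24, adjusted p = 0.029). Cdc45 (-0.38 ± 0.24, adjusted p = 0.291) and Cdc7 (-0.057 ± 0.21, adjusted p = 0.874) were not called. Orc2, given above, was lower in every negative feedback culture.

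Of 4 mitosis genes, 2 were called higher. Top2a, the topoisomerase that untangles chromosomes, was at 270.4, 301, 292 and 464 CPM in uncontrolled cultures and 343, 297, 1399, 1236, 1117, 1159.6 and 951 CPM in negative feedback cultures (1.48 ± 0.37). Cdc25b, the phosphatase that starts mitosis, was at 10.9, 9.57, 11.2 and 15 CPM against 13, 14.9, 81, 65.2, 64.3, 60.0 and 56.7 CPM (2.12 ± 0.43). Kif23, a motor of the midzone at cell division, was at 56 to 83.8 CPM against 68.8 to 147 CPM and not called (0.42 ± 0.22, adjusted p = 0.194). Cenpa, the histone of the centromere, with shared reads, had nearly the same mean in both groups, at 28.9 ± 3.07 CPM (SD, n = 4) and 28.9 ± 7.58 CPM (SD, n = 7).

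Cytosolic chaperones of the Hsp70 and Hsp90 systems, which fold proteins and refold them under heat or other stress, were called higher for 2 of 5 members, and the median log2 fold change was 0.96. All 5 had cultures 3 to 7 above every uncontrolled culture, as did 51.1% of all named genes. Hsp90aa1, the stress-inducible Hsp90, was at 449, 459, 511 and 503 CPM in uncontrolled cultures and 553, 522, 1523, 1273, 1553, 1170.4 and 1107 CPM in negative feedback cultures (1.20 ± 0.30). Hsph1, a nucleotide exchange factor for Hsp70, was at 73.4, 85.7, 108 and 83.6 CPM against 89.1, 93.7, 309, 271, 298, 266 and 264 CPM (1.37 ± 0.32). Hspa8, the constitutive Hsp70, was at 885, 989.8, 1875 and 1048 CPM against 1219.6, 1023, 2885, 2766, 3366, 2576 and 2487 CPM (0.96 ± 0.32, adjusted p = 0.0606) and was not called. Uncontrolled culture 3 was the highest of its group for Hspa8, at a level between the others and cultures 3 to 7. Tcp1, a subunit of the ring chaperone for actin and tubulin, with shared reads, was at 406 to 496 CPM against 465 to 653 CPM and not called (0.36 ± 0.18).

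The genes of the unfolded protein response and of quality control in the endoplasmic reticulum differed in both directions. Of 13 tested records, 3 were called higher (23.1%, against 28.2% of named genes) and none lower, with a median log2 fold change of 0.10. By limma-voom 2 were called higher and 2 lower. Cultures 3 to 7 lay above every uncontrolled culture for 5 of the 13 and below for 3. Over all named genes these shares were 51.1% and 17.3%, so a mix of directions is not particular to this group. Edem1, which sends misfolded glycoproteins to degradation, stood at 1.73, 2.27, 1.11 and 2.79 CPM in the uncontrolled group. Cultures 1 and 2 had 1.79 and 1.65 CPM and the other 5 had 24.3 to 49.2 CPM (3.85 ± 0.84). Hyou1, an Hsp70-like chaperone of the reticulum, with shared reads, was at 346, 250.3, 183 and 203 CPM against 296, 231, 558, 628, 549.6, 634 and 538 CPM (1.00 ± 0.28). Mbtps2, the site-2 protease that frees ATF6 and the sterol regulators from their membranes, had shared reads and stood at 0 to 0.423 CPM against 0.0893 to 9.9 CPM (4.86 ± 1.34).

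The 3 members that were lower in cultures 3 to 7 were Hspa5, Creld2 and Atf4, and none was called by edgeR. Hspa5, also called BiP, the main chaperone of the reticulum, was at 11184, 10266, 5289.5 and 4868 CPM in uncontrolled cultures and 11872, 11149, 1796, 1768, 1840.2, 1849 and 1896 CPM in negative feedback cultures. Cultures 1 and 2 were the highest of all 7, near the top of the uncontrolled range or above it, and cultures 3 to 7 were within a narrow band below it. The fold change over all 7 was -0.78 ± 0.56 (adjusted p = 0.347). Uncontrolled cultures 1 and 2 were themselves well above uncontrolled cultures 3 and 4. Creld2 and Atf4 were singled out after their values were seen. Atf4, the transcription factor of the integrated stress response, with shared reads, was at 465, 384, 494 and 355 CPM against 501, 396, 24.8, 21.7, 30.2, 34.7 and 46.2 CPM (-1.49 ± 0.76, adjusted p = 0.185). It was called lower by limma-voom (-2.74, adjusted p = 0.0127). Creld2, a disulfide isomerase induced by stress of the reticulum, was at 299 to 698 CPM against 669 and 400.2 CPM in cultures 1 and 2 and 93.1 to 119.8 CPM in cultures 3 to 7 (-1.12 ± 0.51, adjusted p = 0.147), and was called lower by limma-voom (-1.50, adjusted p = 0.0317). P4hb, a disulfide isomerase, was at 980.0 to 1443 CPM against 1020.2 to 1297 CPM (-0.12 ± 0.20, adjusted p = 0.715).

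**Figure D4:**
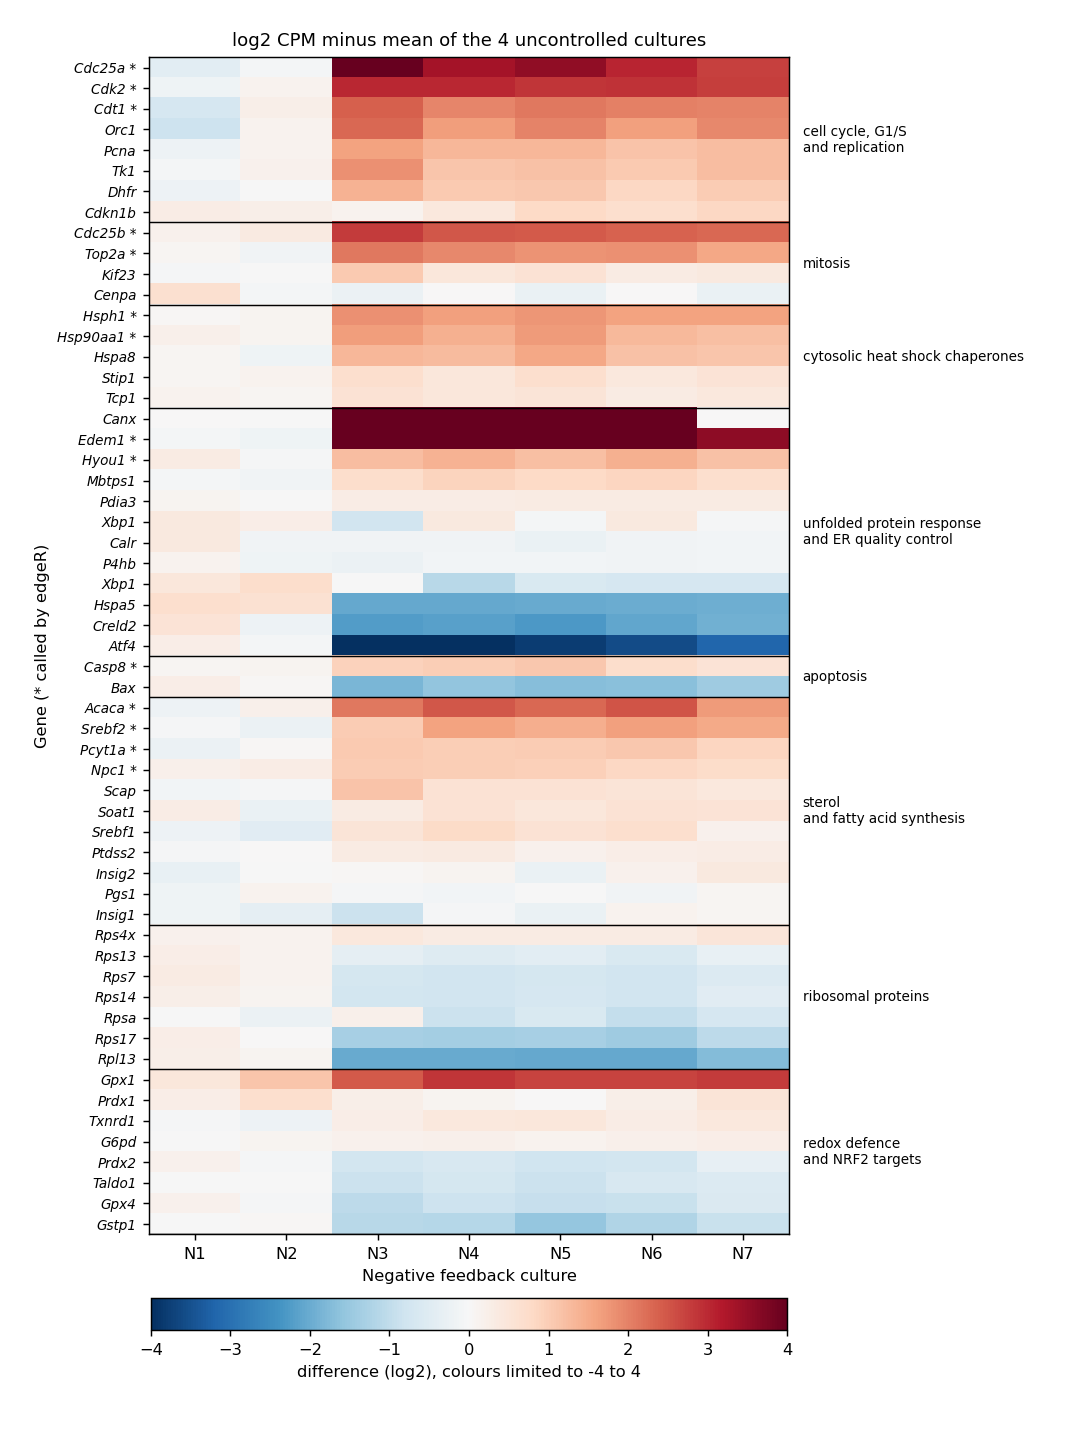
Difference in log2 CPM of each negative feedback culture (columns) to the mean of the 4 uncontrolled cultures, for 57 records of 8 gene lists whose mean level is at least 3 in log2 CPM; an asterisk marks a call by edgeR, and colours stop at -4 and 4. Columns 1 and 2 are pale, and columns 3 to 7 resemble each other in most rows, with Edem1 among the reddest and Atf4 among the bluest, while Canx is pale in column 7.

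Apoptosis genes code for the proteases of cell death and their regulators. Of 7 tested members, 2 were called higher (28.6%, near the 28.2% of named genes) and none lower, and the median log2 fold change was 2.62. Casp2, an initiator caspase, was at 1.23, 0.284, 0.475 and 1.52 CPM in uncontrolled cultures and 0.446, 0.779, 19.7, 15.1, 15.9, 17.3 and 12.9 CPM in negative feedback cultures (3.72 ± 0.92). Casp8, the initiator caspase of death receptors, was at 24.7, 24.5, 26.9 and 27.5 CPM against 27.5, 27.8, 49.3, 51.7, 55.2, 42.5 and 38.2 CPM (0.69 ± 0.19). All 7 cultures were above the uncontrolled ones for Casp8, culture 1 just so. Casp9, the initiator caspase that responds to cytochrome c, had shared reads and low levels, at 4.19, 3.6, 5.22 and 3.8 CPM against 4.2, 3.6, 0.678, 2.24, 1.64, 1.58 and 2.04 CPM (-0.88 ± 0.45, adjusted p = 0.184), and the last 5 lay below every uncontrolled culture. Whether this record shares reads with the inserted construct was not tested, so its level may not be that of the hamster gene alone.

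Bax, which opens the outer mitochondrial membrane, was at 122, 127, 130.5 and 102 CPM in uncontrolled cultures and 143, 124, 33.5, 40.3, 36.8, 37.5 and 44.4 CPM in negative feedback cultures. Cultures 3 to 7 lay well below every other culture, and cultures 1 and 2 did not. The fold change of -0.87 ± 0.36 was not called by edgeR (adjusted p = 0.116) and was called lower by limma-voom (-1.15, adjusted p = 0.0239). Xiap, which binds and blocks caspases, was at 0.247 to 2.54 CPM against 0.876 to 10.1 CPM (2.62 ± 0.97, adjusted p = 0.0881) and was not called. Uncontrolled culture 4 was the highest of its group for Xiap, at 2.54 CPM.

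**Figure D5:**
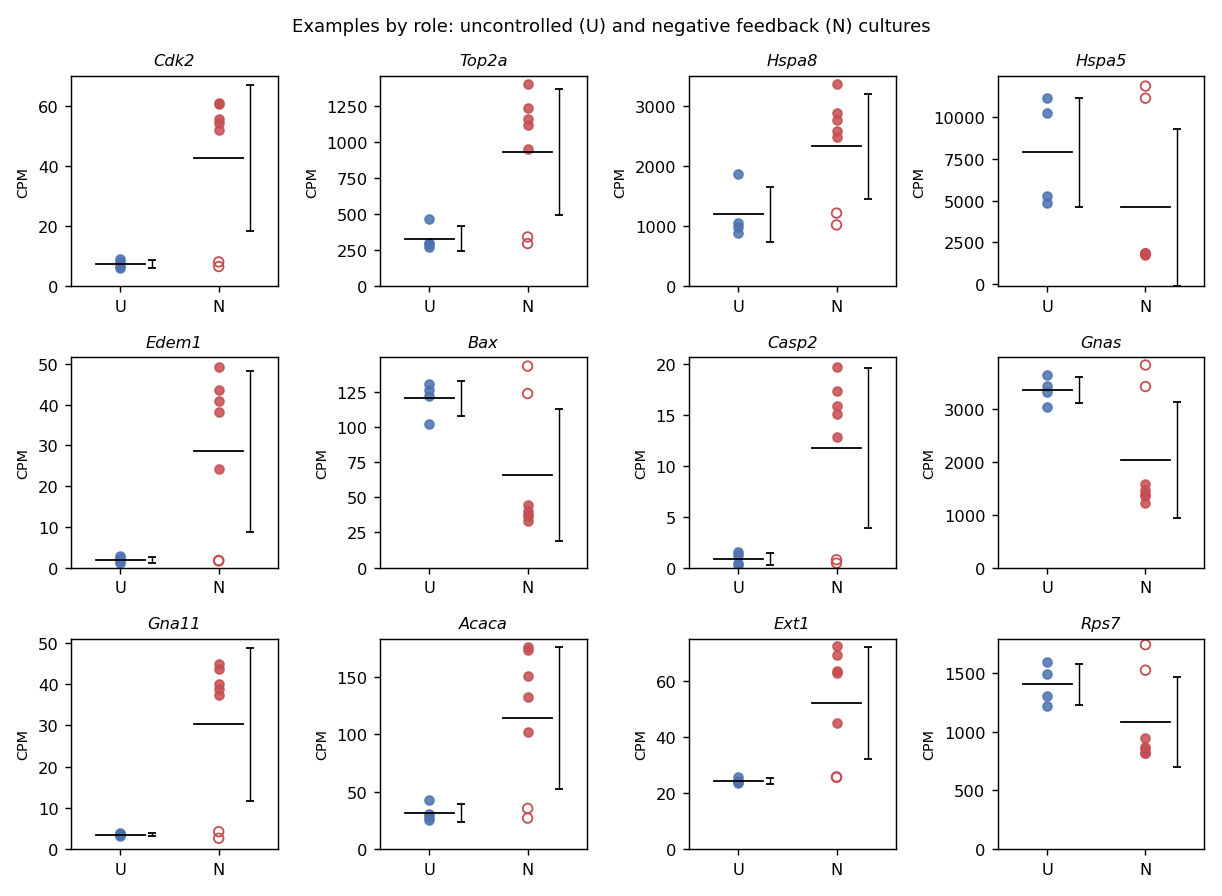
CPM of 12 genes chosen by role, with 1 point per culture for 4 uncontrolled (U) and 7 negative feedback (N) cultures, the group mean as a line and its SD as a bar. Open circles are negative feedback cultures 1 and 2, which lie within or near the uncontrolled values, whether cultures 3 to 7 lie above them, as for Cdk2, or below, as for Bax, Gnas and Rps7.

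Among genes of glucose use, 4 of 6 were called higher. Slc2a1, the basal glucose transporter, was at 12.7, 14.9, 10.9 and 21.1 CPM in uncontrolled cultures, 13.5 and 15.1 CPM in cultures 1 and 2 and 39.9 to 52.6 CPM in cultures 3 to 7 (1.25 ± 0.34). Pgk1, which makes the first ATP of glycolysis, was at 391 to 501 CPM against 464 and 454 CPM and 722 to 810.5 CPM (0.56 ± 0.17), close to the typical named gene. Pdha1, given above, was the third. The fourth, Ldha, lactate dehydrogenase, had a matched record with shared reads that was at 0 in all uncontrolled cultures and in cultures 1 and 2. The other 5 had 0.848 to 4.4 CPM. Gapdh, an enzyme of the middle of the pathway, with shared reads, was at 6538 to 9226 CPM against 5756 to 8148 CPM (-0.27 ± 0.14, adjusted p = 0.185), and Gpi, the second enzyme, at 174 to 219 CPM against 155 to 198 CPM (-0.10 ± 0.12). Neither was called. The 6 matched records thus did not all differ in the same direction, and they do not stand for the pathway as a whole.

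Sterol and fatty acid genes had 6 of 14 members called higher and none lower, with a median log2 fold change of 0.49, near that of named genes. By limma-voom 2 were called higher and none lower. Acaca, which makes malonyl-CoA for fatty acid synthesis, was at 43, 24.9, 27.9 and 30.1 CPM in uncontrolled cultures and 26.9, 35.3, 133, 173, 151, 176 and 102 CPM in negative feedback cultures (1.85 ± 0.45). Srebf2, the transcription factor that turns on sterol genes, was at 77.4, 76.2, 95.1 and 90.6 CPM against 82.6, 71.2, 169, 257, 229.9, 263 and 240.2 CPM (1.14 ± 0.31). Mbtps1, the site-1 protease that makes the first cut in this factor, was at 94.7 to 110.2 CPM against 92.6 to 189 CPM and missed the call (0.58 ± 0.18, adjusted p = 0.0522). Soat1, which stores cholesterol as esters, was at 78.5 to 106 CPM against 73.6 to 134 CPM (0.37 ± 0.15, adjusted p = 0.116).

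Of 4 lysosomal genes, Lamp2 and Npc1 were called higher. Lamp2, a membrane protein needed for chaperone-mediated autophagy, was at 46.3, 37.3, 33.5 and 35.6 CPM against 47.8, 44.6, 96.5, 128, 105, 135 and 104 CPM (1.31 ± 0.35). Its relative Lamp1, with shared reads, was at 573 to 648 CPM against 499 to 662 CPM (-0.049 ± 0.16, adjusted p = 0.862). The sialidase Neu1 was at 45.7 to 59.5 CPM in uncontrolled cultures, 51 and 52.2 CPM in cultures 1 and 2 and 22.6 to 33.2 CPM in cultures 3 to 7 (-0.64 ± 0.34, adjusted p = 0.202) and was not called. The 4 lysosomal genes had a median log2 fold change of 0.35.

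Glycosylation was the largest list, with 21 tested members, 6 called higher (28.6%, against 28.2% of all named genes) and none lower, and a median log2 fold change of 0.73. The share called is thus that of named genes at large. In cultures 3 to 7, 11 members lay above and 6 below every uncontrolled culture, against 51.1% and 17.3% of all named genes. B4galt1, B4galt5 and B4galt6, which add galactose to glycoproteins or glycolipids, were at 0.554 to 1.44, 0.474 to 2.71 and 0.905 to 1.61 CPM in uncontrolled cultures. In cultures 3 to 7 they were at 7.68 to 11.3, 13 to 16.1 and 6.04 to 8.64 CPM, while cultures 1 and 2 were at 0.625 and 0.973 CPM for B4galt1. Their fold changes were 2.87 ± 0.72, 3.37 ± 0.86 and 2.23 ± 0.56, all with whole counts, and B4galt5 was added after its values were seen.

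Mgat1, which starts the conversion of mannose-rich glycans to complex ones, had shared reads and stood at 0.329, 0.0948, 0.0791 and 0 CPM in uncontrolled cultures and 0.268, 0.292, 9.32, 7.72, 8.92, 8.07 and 7.13 CPM in negative feedback cultures (5.45 ± 1.12). Slc35a3, which brings the sugar donor of that step into the Golgi, with shared reads, was at 0 in all uncontrolled cultures and in cultures 1 and 2. The other 5 had 4.94 to 15.4 CPM. Against a floor of 3 counts per library its mean was at least 28.8-fold higher. Ext1, which extends heparan sulfate, had whole counts and stood at 24.1, 23.9, 23.4 and 25.8 CPM against 25.7, 25.5, 44.9, 72.5, 62.6, 69.1 and 63.6 CPM (1.10 ± 0.27). Among members not called was Dpagt1, the first enzyme of the lipid-linked sugar, with shared reads, at 87.4 to 105 CPM against 71.1 to 111 CPM (-0.22 ± 0.13, adjusted p = 0.275). Dpm1, which makes the mannose donor, had means of 87.5 ± 12.4 CPM (SD, n = 4) and, under negative feedback, 87.5 ± 5.73 CPM (SD, n = 7).

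In the secretory pathway, 4 of 5 members were called higher by edgeR, and limma-voom called 1 higher and 1 lower. Furin, the protease that matures precursors in the Golgi, with shared reads, was at 7.81, 6.44, 6.56 and 8.79 CPM against 5.36, 7.69, 45.9, 54.7, 58.8, 53.8 and 49.5 CPM (2.41 ± 0.57). Adam17, the sheddase that frees growth factors and receptors from the surface, was at 19.1, 15.9, 18 and 20.9 CPM against 18.2, 16.6, 71.5, 77.2, 82.5, 79.9 and 65.8 CPM (1.67 ± 0.40). Cope, a subunit of the COPI coat of Golgi vesicles, was the exception at 219, 194, 192 and 159.7 CPM against 206, 190.1, 87.1, 83.4, 86.7, 85.7 and 98.1 CPM. Its cultures 3 to 7 were the lowest, and its fold change of -0.68 ± 0.25 was not called by edgeR (adjusted p = 0.089), but was by limma-voom (-0.79, adjusted p = 0.0323).

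G protein subunits and signalling genes had 5 of 12 members called higher by edgeR, and limma-voom called none higher and 1 lower. Gna11 and Gnaq, the alpha subunits that couple receptors to phospholipase C, both with shared reads, stood at 3.03 to 3.8 and 0 to 0.423 CPM in uncontrolled cultures and at 37.5 to 44.8 and 11.1 to 26.4 CPM in negative feedback cultures 3 to 7. Cultures 1 and 2 were at 2.59 and 4.18 CPM for Gna11 and 0.179 and 0.195 CPM for Gnaq. The fold changes were 3.13 ± 0.66 and 5.67 ± 1.36. Gna13, an alpha subunit of another class, and Gnai1, which inhibits adenylyl cyclase, had whole counts and fold changes of 2.61 ± 0.63 and 2.19 ± 0.66, and Gnai1 was added after its values were seen. Map2k1, the kinase above ERK, with shared reads, was at 42.4, 63, 46.5 and 56.4 CPM against 46.2, 45.3, 129, 135, 155, 142 and 143 CPM (1.13 ± 0.32).

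Gnas and Gnai2, also alpha subunits, were not called. Gnas, which activates adenylyl cyclase, was at 3640.3, 3320.2, 3039 and 3422 CPM in uncontrolled cultures and 3828, 3421, 1229, 1352, 1396, 1461 and 1584 CPM in negative feedback cultures. Cultures 3 to 7 lay below every other culture, with a fold change of -0.72 ± 0.29 (adjusted p = 0.107) that was called lower by limma-voom (-0.88, adjusted p = 0.0298). Gnai2 was at 36.6, 105, 70.9 and 110.4 CPM against 75.2, 71.9, 187, 227, 222, 226 and 240.4 CPM (1.15 ± 0.38, adjusted p = 0.0612). Its uncontrolled culture 1 was the lowest of all 11.

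At the surface, both tested adhesion genes were called higher. Sdc1, a heparan sulfate proteoglycan, was at 10.2, 8.81, 11.3 and 16.5 CPM against 10.8, 11.3, 83.4, 94.5, 109, 96 and 88.3 CPM (2.59 ± 0.59), and Icam1, a ligand of leukocyte integrins, at 82, 87.5, 119.7 and 172 CPM against 133, 159.8, 504, 359, 298, 316 and 324 CPM (1.37 ± 0.37). For Icam1, uncontrolled cultures 3 and 4 and negative feedback cultures 1 and 2 lay together above uncontrolled cultures 1 and 2. Of 6 transporters, 2 were called higher and 1 lower, and Slc2a1, given above, is among the higher. By limma-voom none of the 6 was called higher and 1 was called lower. Slc20a1, a sodium-phosphate importer with shared reads, was the 1 named gene called lower, at 251, 263, 296 and 193 CPM against 217, 185, 151, 156, 194, 145 and 149 CPM (-0.55 ± 0.15, adjusted p = 0.0322). Its groups overlapped by culture 1 of negative feedback and culture 5, which were above the lowest uncontrolled culture. Xpr1, the phosphate exporter, and on no list, was called higher, at 0.474 to 1.78 CPM in uncontrolled cultures, 1.07 and 1.17 CPM in cultures 1 and 2 and 20.1 to 33.6 CPM in cultures 3 to 7 (4.35 ± 0.93). Slc3a2, the shared chain of amino acid exchangers, was at 324 to 473 CPM against 182 to 503 CPM (-0.31 ± 0.24) and not called. Its cultures 3 to 7 lay below every uncontrolled culture.

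Of drug efflux and detoxification genes, 1 of 4 was called by edgeR and none by limma-voom. Ugcg, which makes glucosylceramide, was at 1.15, 1.99, 1.58 and 5.5 CPM against 1.43, 1.65, 30.0, 33.4, 29.6, 35.7 and 22.2 CPM (3.10 ± 0.92). With the short-record share as a covariate its fold change was -0.31. Abcb1, the multidrug efflux pump, with shared reads, was at 77.5, 85.1, 72.2 and 63.2 CPM against 68.9, 65, 68, 81.6, 79.2, 79.3 and 74.4 CPM, with overlapping groups and a fold change of -0.014 ± 0.16 (adjusted p = 0.964). Abcb1b, with shared reads, was at 2.27 to 3.95 CPM against 3.12, 2.82, 1.02, 0, 0, 0 and 0.627 CPM (-1.44 ± 1.48, adjusted p = 0.519). Its cultures 3 to 7 lay below every uncontrolled culture. Ahr, a transcription factor switched on by aromatic ligands, with shared reads, was at 4.44, 2.65, 5.14 and 4.57 CPM against 3.39, 3.41, 18.2, 27.6, 20.9, 25.5 and 16.8 CPM (1.97 ± 0.67, adjusted p = 0.0684) and not called.

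DNA repair genes had 4 of 11 members called higher (36.4%, against 28.2% of named genes), with a median log2 fold change of 0.91. Parp1, the sensor of broken strands, was at 66, 59.7, 69.9 and 73.9 CPM in uncontrolled cultures and 71.3, 79.9, 208, 212, 206, 197 and 196 CPM in negative feedback cultures (1.31 ± 0.28). Apex1, the endonuclease of base excision repair, with shared reads, was at 1.66 to 8.79 CPM against 8.57 and 8.47 CPM in cultures 1 and 2 and 25.4 to 31.5 CPM in cultures 3 to 7 (2.12 ± 0.44). Ercc4, a nuclease of nucleotide excision repair, was at 0.987 to 1.86 CPM against 1.43 to 15.5 CPM (2.98 ± 0.67), and Ercc3, a helicase of the same pathway, was at 21.2 to 25.5 CPM against 21.6 to 51.6 CPM (0.87 ± 0.22). Ercc1, the partner of Ercc4 in one nuclease, was at 45.6 to 55.8 CPM against 34.7 to 53.4 CPM and not called (-0.16 ± 0.24, adjusted p = 0.674). Xrcc1, the scaffold of single-strand repair, had a fold change of -0.17 ± 0.18 (adjusted p = 0.517).

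Enzymes of purine synthesis and salvage supplied the 3 called of 8 genes of nucleotide, folate and amino acid metabolism. Adk, which salvages adenosine, was at 56.3, 74.1, 45.9 and 67.8 CPM against 80.2, 73.5, 135, 146, 142, 144 and 139.7 CPM (1.01 ± 0.20, adjusted p = 0.0236), and cultures 3 to 7 were within a narrow band. Gart, which carries several steps of the purine ring, was at 183, 212, 214 and 191 CPM against 232, 197, 419, 377, 386, 360.1 and 365 CPM (0.74 ± 0.18), and Adsl, which acts later and has shared reads, at 53.5 to 72 CPM against 65.3 to 144 CPM (0.81 ± 0.22). Impdh2, the branch to guanine nucleotides, with shared reads, had a fold change of 0.55 ± 0.37 (adjusted p = 0.31), and its uncontrolled culture 1 was the lowest at 74.5 CPM.

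Among 4 genes of RNA processing, the records of Dicer1, the microRNA processing enzyme, and Smu1, a spliceosome factor, were called higher. Both had shared reads and were near 0 outside cultures 3 to 7. None of the 4 genes was called by limma-voom. Dicer1 was at 0, 0, 0.475 and 0.676 CPM against 0, 0.195, 74.6, 64.6, 49.4, 53.9 and 49.6 CPM, and Smu1 at 0.247, 0.284, 0 and 0.676 CPM against 0.357, 0, 26, 26.5, 28.3, 22.7 and 23.9 CPM. Cirbp, a cold-inducible RNA-binding protein with shared reads, was at 23.5 to 48.4 CPM against 23.7 to 48.4 CPM (-0.0094 ± 0.25).

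Of 8 ribosomal protein genes, edgeR called none in either direction, with 3 at an unadjusted p under 0.05, and DESeq2 also called none, while limma-voom called 2 lower. Their median log2 fold change was -0.39. Cultures 3 to 7 lay below every uncontrolled culture for 5 members and above for 1, against 17.3% and 51.1% of all named genes. Rps7, of the small subunit, was at 1307, 1590.3, 1493 and 1216 CPM in uncontrolled cultures and 1740.2, 1523, 852, 817, 864, 815 and 949 CPM in negative feedback cultures (-0.38 ± 0.21, adjusted p = 0.23). Rps4x, of the same subunit, was the 1 above, at 809, 1069, 944 and 942 CPM against 1065, 1036, 1255, 1187, 1164, 1174 and 1309 CPM (0.31 ± 0.15, adjusted p = 0.157). Rps7 has a record of 694 nt and is one of the short records, which took fewer counts in these cultures, and the part of length in its value was not tested. The elongation factor Eef1a1, with shared reads, was at 6277 to 7376 CPM against 7015 to 10886 CPM and not called (0.46 ± 0.15, adjusted p = 0.0613).

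Redox genes had no call among 8 by edgeR, with 4 at an unadjusted p under 0.05, 1 higher and 1 lower by DESeq2 and 2 lower by limma-voom. Their median log2 fold change was -0.13, and cultures 3 to 7 lay above every uncontrolled culture for 3 and below for 4. Of all named genes, 51.1% lay above and 17.3% below in this way. Gstp1, a glutathione transferase with a record of 633 nt, was at 399, 412, 385 and 393 CPM against 396, 412, 185, 181, 136, 172 and 214 CPM (-0.71 ± 0.35, adjusted p = 0.167). Txnrd1, the thioredoxin reductase, was at 869 to 1087 CPM against 879.7 to 1372 CPM (0.25 ± 0.21). None of 4 chromatin genes was called by edgeR, DESeq2 or limma-voom, and 0 had an unadjusted p under 0.05 by edgeR. The heterochromatin proteins Cbx1 and Cbx3 had fold changes of -0.12 ± 0.11 and 0.27 ± 0.17. The other members, added after their values were seen, were Cbx5 and Hdac5, both with shared reads. Cbx5 had a fold change of -0.083. Hdac5, at a mean log2 CPM of only 0.32, had a fitted fold change of 7.87 (edgeR unadjusted p = 0.0511). Of 6 cytoskeletal records, 1 was called higher, that of the alpha-tubulin Tuba1c, with shared reads, at 105, 131, 115 and 148 CPM against 135, 127, 683, 493, 604, 444 and 459.7 CPM (1.76 ± 0.41). Its near-identical relative Tuba1b, also with shared reads, was at 634 to 784 CPM against 729 to 2094 CPM and missed the call (0.97 ± 0.30, adjusted p = 0.0508). For Tuba1b, cultures 3 to 7 lay above every uncontrolled culture.

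The inserted circuit itself was measured as a single record of 8694 nt. It was at 1790, 2222, 2100 and 1657 CPM in uncontrolled cultures and at 2218, 2010, 1782, 1654, 1866, 1449 and 1545 CPM in negative feedback cultures. Cultures 1 and 2 were the highest of the 7, and the groups overlapped. The difference of -0.12 ± 0.17 on the log2 scale was not called by edgeR (adjusted p = 0.652). The record does not separate the parts of the circuit, so the level of any single part cannot be read from it.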

How the data were processed

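Polyadenylated RNA was measured in 19 libraries, of which 11 are compared here. Trim Galore and kallisto are listed, with no version, in the submitters' processing notes, and the sources used here give neither build nor annotation. Per the file headers, each deposited file lists 46718 transcript records with an estimated count, in which shared reads are divided, and a TPM value. TPM deposited by the authors was not used in any test. Symbols came from a table of assembly CriGri-PICRH-1.0, which matched 528 records by accession, 527 of them with the version and none of the 46184 predicted records, and 334 were protein coding. No sequence table was used here.

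Estimated counts were rounded, filtered with filterByExpr and scaled by TMM. The quasi-likelihood test of edgeR 4.0.16 (R 4.3.3) was run with 1 coefficient per group on all 19 libraries, with Benjamini-Hochberg adjustment over 28555 records. DESeq2 1.42.0 and limma-voom (limma 3.58.1) were alternatives. Totals ran from 9.91 to 13.2 M estimated counts in the 11 libraries. Floors of 3 counts cover counting error only, since reads without molecular identifiers are not independent. Records were called whole where counts were whole within 1e-06 in every library, and other named genes have shared reads. The procedure was tested on simulated data in which changed records shifted alike in every negative feedback culture. Such data lack the division of the real group, so they cannot speak to calls that rest on some of its cultures. Deviations of same-numbered cultures from their group means correlated weakly (0.032, 0.061, 0.015 and 0.074), which does not exclude a pairing.

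The lists and the rule for named genes were written with earlier results of these data known. The rule takes the 10 highest and 10 lowest called fold changes where the mean log2 CPM reaches 1, up to 4 called and 2 other members per list, the 8 largest and 8 smallest differences without overlap at a mean of at least 3, 13 genes fixed by function, and up to 4 called genes whose cultures 1 and 2 oppose the rest. Genes outside it, picked with their values in view, are marked. Some genes taken by the rule are not reported here.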

Additional observations from a re-analysis of the deposited data

Results flagged for a closer look

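In groups of 4 or 7 cultures, 212 sets of values were searched for a single culture far from its group, and 5 were found. Chance alone gives about 1 in 20, which is more than were found, so these are listed only as values to check. Negative feedback culture 7 was the only culture of its group with any count on the Actb record, at 1.097 CPM. Cenpa was at 45.26 CPM in negative feedback culture 1, above the other 6. Orc2 was at 83.72 CPM in uncontrolled culture 1, above the other 3. P4hb was at 1297 CPM in negative feedback culture 1, above the other 6. Soat1 was at 73.57 CPM in negative feedback culture 2, below the other 6.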

How the results depend on the processing

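Records called higher and lower were 2470 and 317. DESeq2 gave 4880 and 1556, limma-voom 1637 and 3402, the 11 libraries alone 8 and 2, the short-record share as a covariate 6 and 0, no low-count filter 2055 and 197, omission of negative feedback cultures 1 and 2 gave 5844 and 5616, and omission of cultures 3 to 7 gave 4 and 9. With the replicate number as a block, 4 were higher and 0 lower, and no named gene was called, with 119 at an unadjusted p under 0.05. The numbers were not taken as pairs, and 1 of 4 uncontrolled cultures correlated best with its own number. Deviations within the negative feedback group hold its division into cultures 1 and 2 and cultures 3 to 7. These correlations therefore cannot exclude a pairing. Leaving out 1 library gave 7 to 4496 higher and 0 to 2442 lower, lowest without an uncontrolled culture and highest without negative feedback culture 1. Named genes called were 80 and 1. They were 44 and 24 by limma-voom, 115 and 11 by DESeq2, 68 and 2 with library totals, 132 and 52 without cultures 1 and 2, and 0 and 0 in the 11 libraries alone, with the block, with the covariate and without cultures 3 to 7. Leaving out 1 library gave 0 to 118 and 0 to 29. The causes were not tested. Non-overlapping named genes were 7 with library totals and 11 to 32 without 1 library, and non-overlapping records 1138 to 2842.

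Library differences without 1 library ran from -3.75 to -2.55 percentage points for the 100 most abundant records, -5.28 to -3.95 for short records, -0.035 to -0.017 for curated noncoding, 1.20 to 1.70 for predicted coding and -1.47 to -1.18 for predicted noncoding records. With limits of 600 and 1000 nt the short-record difference kept its sign.

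Of 2094 gene values over 98 genes under the alternatives, 540 lost and 73 gained a call, and 103 changed sign, 23 of them for genes called in either fit and 80 for genes called in neither, 29 of these without cultures 3 to 7. Among called genes, with cultures 3 to 7 left out, log2 fold changes were -0.0146 for Acaca, -0.0806 for Adam17, -0.36 for B4galt1, -0.51 for Casp2, -0.16 for Ccnd1, -0.42 for Cdc25a, -0.0186 for Cdk2, -0.21 for Cdt1, -1.49 for Dicer1, -0.20 for Edem1, -0.18 for Furin, -0.0207 for Gna11, -0.11 for Gna13, -0.50 for Gnaq, -0.19 for Map2k1, -0.10 for Pex19, -0.0804 for Sdc1, -0.0578 for Slc2a1, -0.70 for Smu1, -0.14 for Srebf2, -0.051 for Top2a and -0.72 for Ugcg. For Ugcg it was -0.31 with the covariate.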

Other observations

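Single genes outside the lists were picked with their values in view, and no group of genes is described by them. Ndufa1, a subunit of respiratory complex I, was at 69.2, 77.8, 69.9 and 68.4 CPM in uncontrolled cultures and 78.4, 76.4, 13.1, 16, 17.1, 15.3 and 21.1 CPM in negative feedback cultures (-1.07 ± 0.44, edgeR adjusted p = 0.117). Its record is 402 nt long, and short records took fewer counts in cultures 3 to 7, and the part of length in its value was not tested. Washc2, a member of the WASH complex of endosomes, with shared reads and a record of 4183 nt, was at 137, 142, 126 and 119 CPM against 121, 104, 18.5, 36.8, 28.4, 36.4 and 40.5 CPM (-1.25 ± 0.40, edgeR adjusted p = 0.0537). Neither was called by edgeR, and limma-voom called both lower (adjusted p = 0.0163 and 0.0127).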
